A study of Mus musculus with 3 samples.

Results

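The promoters described here carried H3K4me3 in early meiotic prophase, had a lower level in later prophase, and were below the median level in elongating spermatids. They were selected on the measured counts themselves: a promoter was a member when it had at least 83 counts in leptotene/zygotene spermatocytes (LZ), fewer than 136 in pachytene/diplotene spermatocytes (PD) and fewer than 873 in elongating spermatids (ES), 873 being the median of the ES library. The rule found 626 members among 11140 promoters, or 5.62%. As all 3 libraries chose the members, the levels and differences below are descriptions, and none carries a test.

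H3K4me3, trimethylation of lysine on the tail of histone H3, marks the start sites of genes that are active or poised for activity. In early meiotic prophase the methyltransferase PRDM9 also places the mark at recombination hotspots outside promoters. Leptotene and zygotene are the steps in which DNA breaks form and homologous chromosomes begin to pair, pachytene and diplotene follow with paired and then separating chromosomes, and elongating spermatids are haploid cells that exchange most histones for protamines.

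The cells came from testes of adult C57BL/6J mice, with no genetic change or treatment named for any of the 3 stages. Chromatin was cut with micrococcal nuclease and precipitated with 1 H3K4me3 antibody. Each stage is represented by 1 library, so no difference has a replicate check, and the sources used here do not say how the cells of a stage were separated or how many animals contributed. The ES library was the deepest, with 17989325 counts over the promoters, followed by PD with 4826890 and LZ with 1654906. Levels are given as counts per 1000000 of these sums (CPM), a share that cannot show a change common to all promoters.

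The rows are named by numbers of assembled loci, and 0 of the 626 members matched a gene in the RefSeq table used (GRCm38.p6). Gene functions, positions and sequences of the members, and marker genes of the labelled stages, are therefore not analysed here. Without an input library, the level of background was taken from the weakest 10% of promoters by mean CPM. Their median was 8.39 CPM in ES and 1.66 CPM in PD, and as a median of weak promoters it can be undercut.

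The members held a larger part of the mark in LZ than their number, and a far smaller part in both later stages. They were 5.62% of the promoters and took 8.33% of the LZ counts (exact 95% interval 8.29 to 8.38). In PD their share was 0.654% (0.647 to 0.661), and in ES it was 1.36% (1.36 to 1.37). The PD and ES ceilings of the rule hold the members under 5.62% in both libraries, so nothing is read from those shares. The larger part in LZ was not particular to the members. Promoters high in LZ and PD with ES at or above its median were 21.4% of the promoters and took 53.2% of the LZ counts. All intervals cover counting error only, and reads amplified without molecular identifiers are not independent molecules. In bulk chromatin, fewer marked cells and less of the mark per cell cannot be told apart.

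Within LZ the members were mostly of moderate rather than top strength. Their LZ count had a median of 155.5, with 10th and 90th percentiles of 92.5 and 387.5 and a highest value of 1992. By comparison, promoters high in both LZ and PD had median LZ counts of 258 where ES was below its median and 345 where it was not. Of the members, 466 lay between the 50th and 75th percentile of the LZ library, 112 between the 75th and 90th, and 48 in its top 10%, which began at 422 counts.

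In PD the members ranged from 2 to 135 counts, with a median of 40.5, or 8.39 CPM. No member was at 0 in any library. The PD level of most members was above that of promoters low in both spermatocyte libraries, whose median was 14 counts. At or below that value were 104 members (16.6%). The PD background was reached or undercut by 45 members (7.19%), a smaller share than the 12.5% of all promoters. In the PD library as a whole the members were mostly in the middle: 30 lay below its 10th percentile, 64 between the 10th and 25th, 311 between the 25th and the median of 58 counts, and 221 (35.3%) between the median and the cut-off.

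In ES the members ranged from 10 to 871 counts, with a median of 390, or 21.7 CPM. The lowest 10% of the ES library, below 165 counts, held 157 members, which is 25.1% of them. A further 167 lay between the 10th and 25th percentile and 302 between the 25th percentile and the median. Of all promoters, 1110, 1673 and 2782 lay in the same bands. The ES background level was reached or undercut by 146 members (23.3%), against 1000 of all promoters (8.98%). All 1000 lay under the ES cut-off, so the cut-off alone raises the members' shares at background and in the lowest 10%. Nothing is read from these differences. In PD and ES alike, 39 members (6.23%) were at or under background, against 340 of all promoters (3.05%). Those 340 lay among the 626 members and the 2987 promoters low in LZ that passed the same PD and ES ceilings. As all other promoters exceeded a ceiling, the 3.05% is not a like base for the members.

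**Figure D1:**
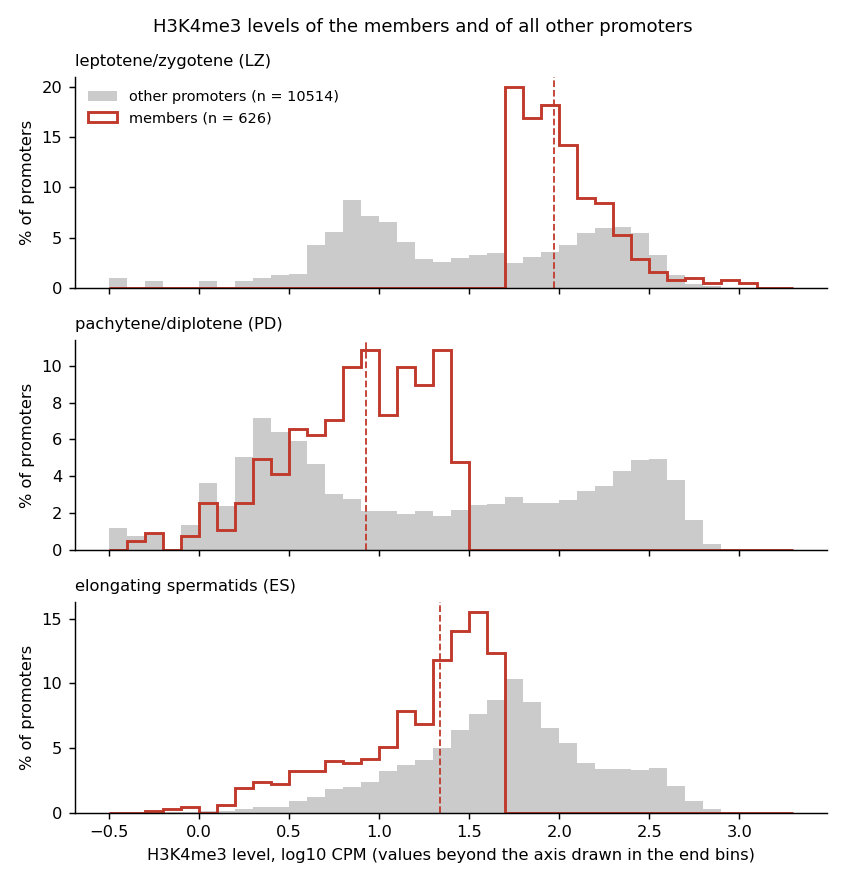
Distribution of H3K4me3 levels (horizontal axis, log10 CPM) over the 626 members (red outline) and the 10514 other promoters (grey), as a percentage of each set, with the members' median as a dashed line and values beyond the axis in the end bins. The members start at the LZ cut-off, spread from the low group of promoters up to the cut-off in PD, and reach down into the lowest part of ES.

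The members do not end in a natural gap. The 20 members nearest to the LZ cut-off had 83 to 85 LZ counts with medians of 42 in PD and 325 in ES, and the 20 promoters that just failed it had 80 to 82, 37 and 266. At the PD cut-off, the 20 nearest members had 126 to 135 PD counts and a median of 509 in ES, against 136 to 142 and 473.5 just outside. At the ES cut-off, the 20 nearest members had 825 to 871 ES counts and a median of 69 in PD, against 876 to 917 and 80.5 just outside. A count of 83 has an exact 95% Poisson interval of 66.1 to 103, and 449 members (71.7%) had intervals inside all 3 cut-offs.

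From early to later prophase, every member had less than 50% of its LZ level left with scaling to library totals. The median level in PD was 10.9-fold lower than in LZ, a log2 ratio of -3.44, while the median over all promoters was -0.99. The members' median was -2.27 by median of ratios and -1.60 after quantile normalization, where that of all promoters was 0.15 and -0.03. Promoters were called higher or lower by size alone: the ratio had to reach 2-fold after adding 1 count scaled to library size, with a minimum of 20 counts in the stronger library. All 626 members were called lower in PD, against 40.9% of all 8286 promoters with enough counts, and 0 were higher, against 16.1%. The rule uses both columns and leaves almost no other outcome, so nothing is read from these shares. The count of lower members was 590 with TMM factors, 544 by median of ratios and 491 after quantile normalization. Shares of all promoters were not computed with these scalings, so nothing is read from the counts.

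The size of this difference varied widely among the members. With library totals it was at least 4-fold in 568 members (90.7%, against 27.6% of all promoters) and at least 8-fold in 423 (67.6%, against 10.99%). It was at least 16-fold in 207 members (33.1%, against 3.48%) and at least 64-fold in 77 (12.3%, against 0.880%). The rule used both libraries, so these shares too are descriptions. The median member had 9.09% of its LZ level left in PD, with 10th and 90th percentiles of 1.23% and 24.2%.

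Between PD and ES the direction at the members depended on how the libraries were scaled. With library totals the median level was 2.09-fold higher in ES, a log2 ratio of 1.06. The median over all promoters was 1.25, so the members were 0.19 below a shift that the table as a whole shows. With this scaling 331 members were called higher in ES and 19 lower, where 52.2% and 29.7% of all promoters with enough counts were. TMM factors gave 229 higher and 45 lower members, background subtraction 225 and 154, median-of-ratios size factors 86 and 147, and quantile normalization 5 and 384, so no direction is stated. Shares of all promoters were not computed with these scalings. The members' median was below that of all promoters in each of these scalings, by 0.20 with median-of-ratios factors and by 0.96 with quantile normalization. Factors that multiply a whole library move both medians alike, so these differences are not separate checks. With library totals, 48.4% of all promoters had a ratio under the members' median. The rule also caps the ES count, so nothing is read from the difference.

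The 331 members called higher in ES with library totals had not returned to their LZ level. Their median went from 89.4 CPM in LZ to 6.84 CPM in PD and 28.3 CPM in ES, and 276 of them still had at most 50% of their LZ level in ES. The ES cut-off corresponds to a level under that of the LZ cut-off, which keeps every member lower in ES than in LZ with library totals.

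Over the whole interval from LZ to ES the median level was 4.98-fold lower in ES, a log2 ratio of -2.32 against 0.20 over all promoters. The members' median was -1.12 when scaled to promoters high in LZ and PD, and -3.06 after background subtraction. By the 2-fold rule with library totals 561 members were lower and 0 higher, where 34.5% and 40.2% of all promoters were, and again the rule itself sets the direction. With the scaling to high promoters 337 members were lower and 1 was higher, and the shares of all promoters were not computed. The median member had 19.9% of its LZ level in ES. In 65 members at least 50% was left, and in 163 less than 10%. The level was at least 8-fold lower in 206 members (32.9%), against 4.34% of all promoters. The LZ and ES cut-offs shape these counts, so nothing is read from them.

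The members were not uniform, and their PD and ES counts did not follow the LZ count in one direction. Divided by LZ count into 4 groups of about equal size, the first 3 groups had median LZ counts of 94.5, 132 and 185. Their PD medians were 32.5, 40 and 54 counts and their ES medians 351.5, 412 and 498. Up to that point, a higher LZ count thus went with higher PD and ES counts. In the highest group, with a median of 347 LZ counts, the medians were 29 in PD and 285.5 in ES, under those of the third group. They were not clearly apart from the lowest group: the 95% intervals of the medians, which treat promoters as independent, were 19 to 43 and 29 to 39 counts in PD, and 161 to 359 and 270 to 423 in ES, for the highest and the lowest group. The ES median of the highest group was 0.812 times that of the lowest. For a stricter set the ratio was 0.207. Its 283 members were at least 1.5 times above the LZ cut-off and under 50% of the PD cut-off, and were grouped anew. That set leaves out members with more PD counts, which in the highest group tended to have more ES counts. The ratios are therefore from unlike sets. All these medians are counts within one library, and their order does not depend on scaling.

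In the top 10% of the members by LZ count, a set added after the values were seen, the later levels were lower. These 63 promoters had 389 to 1992 LZ counts with a median of 529, and their medians were 17 counts in PD and 84 in ES. That ES median corresponds to 4.67 CPM, under the background level of 8.39 CPM. Of the 63, 40 (63.5%) were at or under the ES background, compared with 38 of 158 (24.05%) in the lowest LZ group and 16 of 157 (10.2%) in the third. In the second group 28 of 155 (18.1%) were, and in the highest, which contains the 63, 64 of 156 (41.0%). Of all promoters 8.98% were, but the ES cut-off raises every share among the members.

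**Figure D2:**
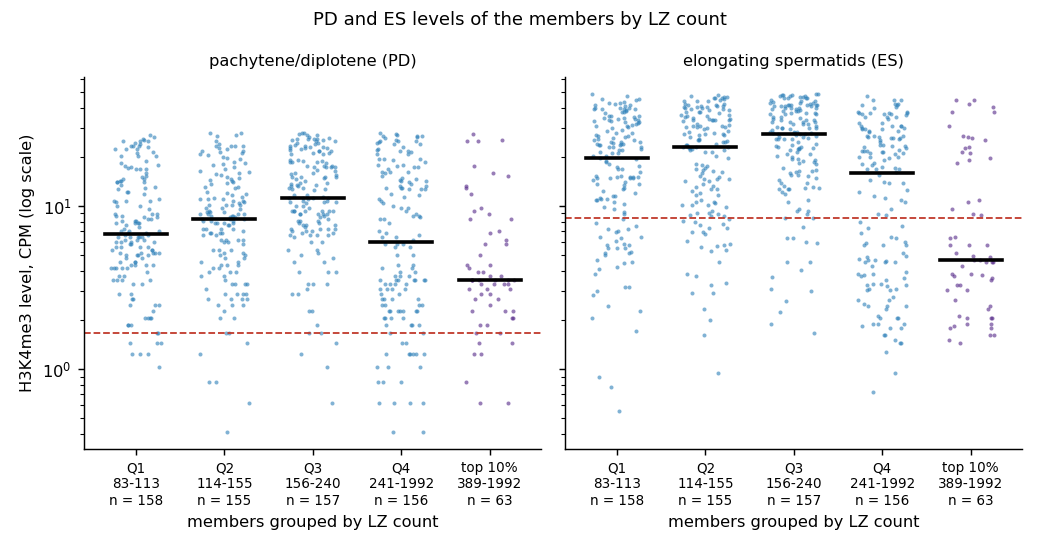
PD (left) and ES (right) levels in CPM on a log scale for each member, in the 4 groups by LZ count (Q1 to Q4) and in the top 10%, which is part of the highest group. Black bars are medians and the dashed line is the background of that library. ES medians are 19.5, 22.9, 27.7 and 15.9 CPM in the groups and 4.67 CPM in the top 10%.

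Within this top 10%, ES counts ran from 26 to 805. Divided at the ES background level, the 40 promoters at or under it had median counts of 552 (LZ), 15 (PD) and 61 (ES), and the 23 above it had 455, 40 and 413. The division was imposed on the ES counts and shows no separate sets.

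Seen from the ES side, the lowest members differed from the others in LZ and PD. The 157 members in the lowest 10% of ES had a median of 81 ES counts, and 35 of them were in the top 10% of the LZ library, compared with 3 of the 167 in the next band and 10 of the 302 above it. Their median PD count was 14, equal to that of promoters low in both spermatocyte libraries, and it was 41 and 54 in the bands above. The median level was 40.8-fold lower in PD than in LZ for the lowest band, and 10.2-fold and 8.75-fold lower for the others. The median LZ counts of the 3 bands, at 163, 147 and 156, were close together, so the lowest band differs in LZ by its upper tail: the 90th percentiles were 671.8, 302.2 and 295.6.

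**Figure D3:**
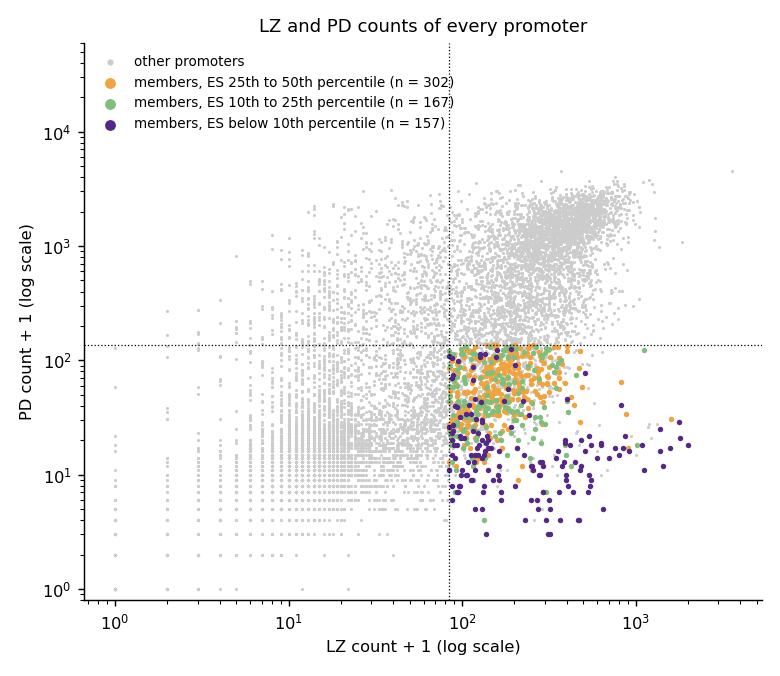
LZ against PD counts of every promoter on log scales (1 added), with the members coloured by their position in the ES library and the rule's LZ and PD cut-offs as dotted lines. Members of the lowest ES band extend to the right along the lower edge, with few members of the higher ES bands beside them.

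Across members, PD and ES counts went together more closely than either did with LZ. The Spearman rho over the 626 members was 0.50 for PD and ES, with a Pearson r of 0.62 on log2(count + 1). It was 0.01 for LZ and PD and -0.07 for LZ and ES. In the highest LZ group the rho was 0.72 for PD and ES, -0.24 for LZ and PD and -0.34 for LZ and ES, and in the other groups together it was 0.38, 0.25 and 0.22. Over all 11140 promoters PD and ES had a rho of 0.21 and LZ and PD 0.78. Promoters share their libraries and are not replicates, and the rule truncates all 3 columns, so these coefficients describe the plotted points and are not comparable in size with those of the whole table.

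**Figure D4:**
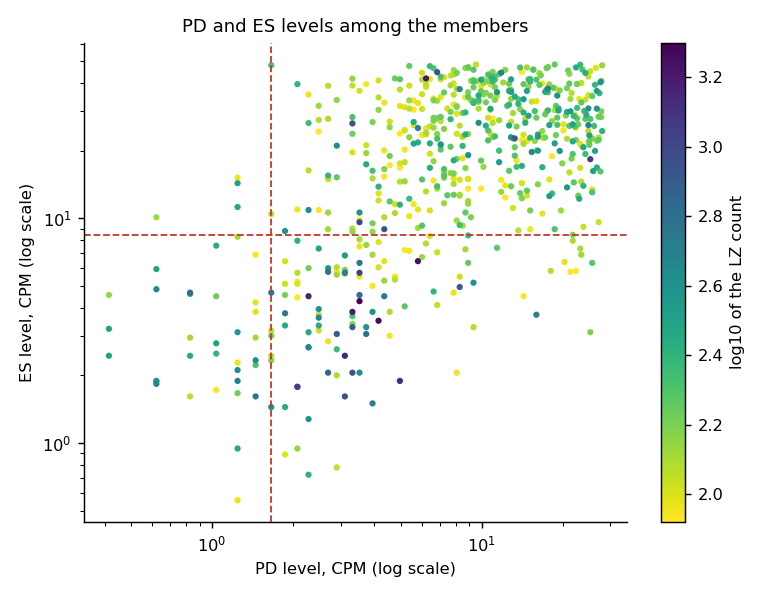
PD against ES levels of the 626 members in CPM on log scales, coloured by the log10 of the LZ count, with the background of each library as dashed lines. Members low in PD are mostly low in ES, and the darkest points, with the most LZ counts, lie mainly in the lower left.

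Promoters with the same early course but an ES count at or above the median numbered 585, so that the members made up 51.7% of the 1211 promoters high in LZ and low in PD. Both sets had similar LZ counts, with medians of 155.5 and 151, and the members had fewer PD counts, with medians of 40.5 and 59. Within the ranges of the 4 LZ groups, the share of members was 51.3%, 49.7%, 49.2% and 57.4%. The ES cut-off is the ES median, which about 50% of all promoters fall below. That value is not a base for every subset. Of promoters high in LZ and PD, 1375 fell below the ES cut-off and 2381 did not. Of those low in both, 2987 fell below it and 2344 did not. No share is therefore read as a result about these promoters. In the top 10% of the LZ library the share of members was 66.7%, or 48 of 72 promoters. These 48 had median counts of 634 (LZ), 17 (PD) and 81.5 (ES), and the 24 others had 587, 26.5 and 1468.5. In ES the 24 began at 954 counts, and 34 of the 48 were at or under background. The ES cut-off parts the 48 from the 24, so the rule sets their difference in ES and nothing is read from it.

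Against promoters that passed the same PD and ES ceilings but were low in LZ, the members had higher median counts. These 2987 promoters had medians of 13 counts in PD and 286 in ES, where the members had 40.5 and 390. At the lower end the order in ES turned, with a 10th percentile of 66.5 counts for the members and 79 for the promoters low in LZ. When only the 283 members well inside the LZ and PD cut-offs were taken, the ES median was 305, and its ratio to the promoters low in LZ was 1.07 in place of 1.36. Those 283 exclude members with more PD counts, which tended to have more ES counts.

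The 1375 promoters high in LZ and PD with ES below its median had a higher ES count than the members under the same ceiling. Their ES median was 621 counts and their 10th percentile 340. The 577 promoters high in PD only had an ES median of 395 with a 10th percentile of 158.6, close to the median of 390 in the members, whose 10th percentile was lower. No test of these differences is possible with 1 library per stage.

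**Figure D5:**
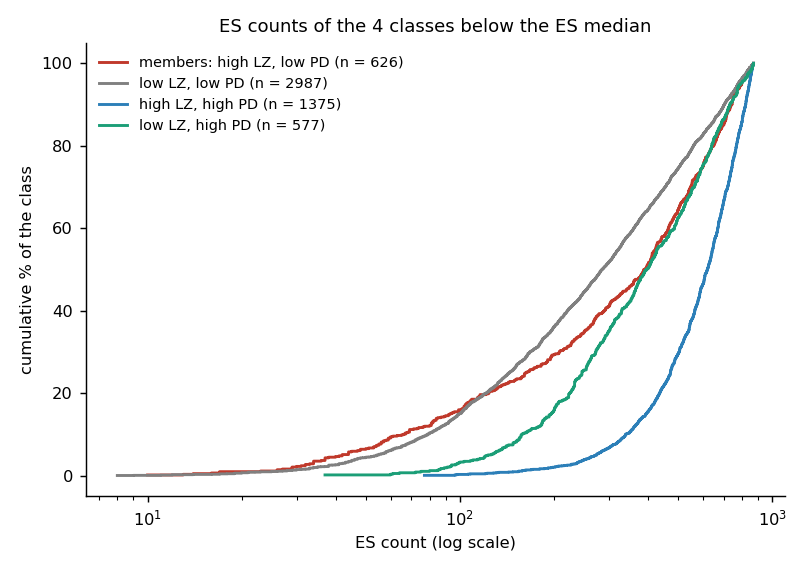
Cumulative percentage of promoters by ES count (log scale) for the 4 classes that lie below the ES median of 873. The members (red) start with the promoters low in LZ and PD (grey) and end beside those high in PD only (green), while promoters high in LZ and PD (blue) lie to the right.

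With no gene names for the loci, 4 members are named, the first 2 for a lower level in PD than in LZ and the first 2 for a higher level in ES than in PD, ranked by the bound of the exact interval of the ratio nearest to 1. The strongest LZ member was MSTRG.25201, where 1992 LZ counts stood against 17 PD and 77 ES counts. Its LZ level was 1204 CPM (95% interval 1151 to 1258), its PD level 3.52 CPM (2.05 to 5.64) and its ES level 4.28 CPM (3.38 to 5.35). The LZ level was 342 times the PD level (interval 213 to 588), and the ES to PD ratio of 1.22 had an interval from 0.712 to 2.19 that includes equality. MSTRG.20916 ranked first for the lower PD level, with 1448, 11 and 81 counts, and 3.55% of all promoters had fewer ES counts. Both are far above the other stages in LZ and lie low in PD and ES.

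The members ranked first for a higher level in ES were of another kind. At MSTRG.25553, 210 LZ counts and 8 PD counts were followed by 865 in ES, just under the cut-off. Its level in ES was 48.1 CPM (44.9 to 51.4), which is 29.0 times that in PD (14.7 to 67.4) and 0.379 times that in LZ (0.326 to 0.443). MSTRG.6999 had 252, 10 and 712 counts, and an ES level 19.1 times the PD level, with a lower bound of 10.3. Both thus lay near background in PD but close to the middle of the ES library. The ratios of the 4 named members were chosen for being extreme, and their intervals do not allow for that.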

How the data were processed

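H3K4me3 was measured in 3 libraries, 1 per stage, grouped by the labelled cell type. The values are raw counts per promoter as deposited by the authors, in a table whose name gives a 2 kb window. Trim Galore, STAR and mm10 are named in the submitters' processing notes. Versions, the counting tool, the treatment of duplicate reads, the place of the window and the choice of promoters are not stated there.

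Members were found by the rule on raw counts. The members, classes and comparisons were chosen with earlier results of these data known. Levels are CPM of the summed promoter counts. A count of 0 would allow up to 3 counts, which is 1.81 CPM (LZ), 0.622 CPM (PD) or 0.167 CPM (ES). Intervals are exact (Poisson for a count, Clopper-Pearson for shares and ratios). With 1 library per stage no test between stages was run. The calculations (Python 3.11.15, scipy 1.17.1) were tested on simulated data. TMM factors came from edgeR 4.0.16 and median-of-ratios size factors from DESeq2 1.42.0. The 4 named members follow a rule of rank.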

Additional observations from a re-analysis of the deposited data

How the results depend on the processing

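No paired analysis was possible because there is a single library for each stage, which also leaves no replicate to omit. Scaling moved the medians most. For PD against LZ the members' median log2 ratio was -2.73 with TMM, -2.27 with size factors by median of ratios, -1.60 after quantile normalization, -3.60 when scaled to promoters high in LZ and PD and -3.68 after background subtraction. For ES against LZ it was -2.04 with TMM, -2.97 with quantile normalization, -1.12 with the high-promoter scaling and -3.06 after background subtraction. For ES against PD it was 0.62 with TMM, 2.42 with the high-promoter scaling and 0.25 after background subtraction, and it turned to -0.25 by median of ratios and -1.34 after quantile normalization. Setting another level as unchanged, or reshaping each library, produces these shifts by construction.

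Members called higher in ES than in PD numbered 86 by median of ratios, 5 after quantile normalization, 561 with the high-promoter scaling and 123 at 4-fold. Those lower numbered 45 with TMM, 147 by median of ratios, 384 after quantile normalization, 1 with the high-promoter scaling, 154 after background subtraction and 2 at 4-fold. Those lower in ES than in LZ numbered 337 with the high-promoter scaling, where 1 was higher, and 371 at 4-fold. All other counts stayed within 1.5 times.

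Moving the LZ or PD cut-off by 0.5 on the log2 scale gave 441 to 821 members. An ES cut-off at the 25th percentile left 324, and at the 75th percentile it gave 856. Cut-offs set on the rank of a count within its library gave 500, of which 473 were members. Thinning all libraries to 1654906 counts gave 613, of which 587 were members. Of the 449 members with all intervals inside the cut-offs, a set added after seeing the data, the median was -3.68 between LZ and PD and -2.57 between LZ and ES. For the 283 members well inside the LZ and PD cut-offs, the ES median relative to promoters low in LZ was 1.07 times, and the highest of the 4 LZ groups had 0.207 times the ES median of the lowest, against 0.812 times for all members. Choosing these 283 on PD also removes members with more ES counts, as the counts went together. Relative to the level, counting error was widest in PD, where the members had the fewest counts.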

Other observations

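The locus number took no part in choosing the members, and no source used here says what its order follows. Members occurred from locus 12 to locus 27133 of a numbering that ends at 27289. Among 27 blocks of 1000 locus numbers with at least 300 promoters each, the share of members ran from 3.40% to 8.52% with a median of 5.79%. After sorting by locus number, the promoter following a member was itself a member in 50 of 626 cases (7.99%), where members were 5.62% of the table. For directly consecutive numbers it was 27 of 322 (8.39%). Most members stood alone: 527 had no member on either side, 48 pairs were found and 1 run of 3. At 5.62% of the table, most would stand alone in a random order too, so nothing is read from this. No 2 members had the same counts in all 3 libraries. Whether neighbouring windows overlap and share reads was not tested.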
